A study of Mus musculus with 4 samples.

Results

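Chemokines are small secreted proteins that direct the movement of cells, and chemokine receptors are the membrane proteins that read them. The 57 rows described here are the chemokine ligands (36) and chemokine receptors (21) found by gene name among the 24216 rows of a table comparing sorted cells of mouse molar pulp with those of incisor pulp. They stand for 56 gene symbols, since Ccl19 has a row on chromosome 4 and a further row on an unplaced piece of it. RNA was sequenced from FDG-positive cells of XLacZ4 mice, with 2 libraries of molar pulp cells and 2 of incisor pulp cells. XLacZ4 is the strain of both groups, a reporter line in which beta-galactosidase marks the mural cells of small vessels (pericytes and smooth muscle). FDG is a substrate that fluoresces once beta-galactosidase has cleaved it, and the lysosomal enzyme that cells carry themselves can cleave it as well. No age, sex or further treatment is given, and nothing says whether the 2 libraries of a tissue come from separate animals. Dissociation text of the incisor libraries mentions molars, and their tissue was taken from title, source and tissue labels.

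Each row of the authors' deposited table gives 1 FPKM per tissue (fragments per kilobase of transcript, scaled for sequencing depth), so the values below carry no SD, and the depth behind them is unknown. A gene is said to be called where the authors' q, their p-value adjusted over all 18770 tested genes, was under 0.05. In bulk samples of this kind fewer cells of a type and less RNA per cell cannot be told apart. Nor can a difference between teeth be told apart from one in how their cells were sorted or sequenced.

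The ligands fall into families named for the spacing of their first cysteines: in CC ligands the cysteines are adjacent, and in CXC ligands a residue lies between them. CXC ligands with a glutamate-leucine-arginine (ELR) motif ahead of the cysteines draw neutrophils, many CC ligands draw monocytes, and others direct lymphocytes or hold stem and immune cells in place. Receptors are seven-helix proteins that signal through inhibitory G proteins, while atypical receptors bind ligands without that signal. In tooth pulp, chemokines are known as products of fibroblasts, vessel cells and macrophages that respond to injury or bacteria.

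The sorted cells held RNA of several cell types. Counts of called markers, here and below, are to be read beside the shares over all tested genes, 11.9% higher in molar and 4.28% lower. The sums are to be read beside the FPKM totals of all rows, 815089 in molar and 539574 in incisor. Summed FPKM of 12 mural cell markers was 329 in molar and 840 in incisor. Of these, 2 were called higher in molar (Kcnj8 and Des) and 3 lower (Tagln, Rgs5 and Pdgfrb). Rgs5 was the largest part of both sums, at 127 in molar and 537 in incisor, while Kcnj8 stood at 108 in molar and 16.0 in incisor. Macrophage markers summed to 8598 in molar and 5484 in incisor (12 genes, 3 called higher in molar and 1 lower, none at 0). Neutrophil markers were low, at 17.5 in molar and 31.5 in incisor (12 genes, none called higher and 2 lower, Camp and Lcn2 listed at 0 in molar). Endothelial markers summed to 296 in molar and 21.1 in incisor, with 9 of 10 called higher and Cldn5 listed at 0 in incisor, and dissociation stress genes to 9584 in molar and 746 in incisor, with 11 of 14 called higher. Dental epithelial markers summed to 2634 in molar and 23494 in incisor, 8 of 9 called lower. The summed values for T and NK cells were 11.1 in molar and 48.7 in incisor (0 called higher and 2 lower of 9). Nkg7 was at 0 in molar, and Cd3e, Cd8a and Ncr1 at 0 in incisor. Most of this sum was Cd4, at 7.45 in molar and 44.7 in incisor. Cd3d, Cd3e, Cd3g, Cd8a, Ncr1 and Klrb1c, all under 1 FPKM, had the higher value in molar. B cell markers summed to 75.4 in molar and 38.3 in incisor (none called of 5 tested, Pax5 at 0 in both). Most of that was Cd79b, at 71.7 in molar and 37.1 in incisor. For dendritic cells they were 11.3 in molar and 13.5 in incisor (none called of 6 tested), and for mast cells 5.25 in molar and 95.1 in incisor (1 of 7 lower, Cpa3, listed at 0 in molar). Pulp fibroblast genes summed to 4295 in molar and 2905 in incisor (1 called higher and 3 lower of 9), odontoblast genes to 17.7 in molar and 171 in incisor (2 of 6 lower), and erythroid genes to 204 in molar and 6.002 in incisor (4 of 6 higher, Klf1 at 0 in incisor). The part of these cell types in the chemokine values was not tested.

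Chemokine ligands were higher in molar more often than receptors were. Of 33 tested ligands, 15 (45.5%) were called higher in molar and 1 (3.03%) lower in the authors' deposited table, against 11.9% higher and 4.28% lower over all tested genes. Of 21 tested receptors, 3 (14.3%) were called higher in molar and 2 (9.52%) lower. Among members at 1 FPKM or more in either tissue, the ligand counts were 15 higher and 1 lower of 26 and the receptor counts 3 higher and 2 lower of 12, where the shares over all genes at that level were 16.1% and 5.66%. At 5 FPKM or more they were 13 higher and none lower of 19 ligands and 2 higher and 1 lower of 8 receptors, beside 21.7% and 9.02% of all genes. The receptor share called higher is near that of all genes, and the difference between the classes was not tested. On the scale of log2((molar FPKM + 1) / (incisor FPKM + 1)), the median was 1.62 over the 26 ligands and 0.32 over the 12 receptors, beside 0.14 over all 13200 genes at 1 FPKM or more. The receptor median turned to -0.063 when the FPKM totals of the tissues, 815089 in molar and 539574 in incisor, were set equal, and to -0.77 with a minimum of 5 FPKM.

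**Figure D1:**
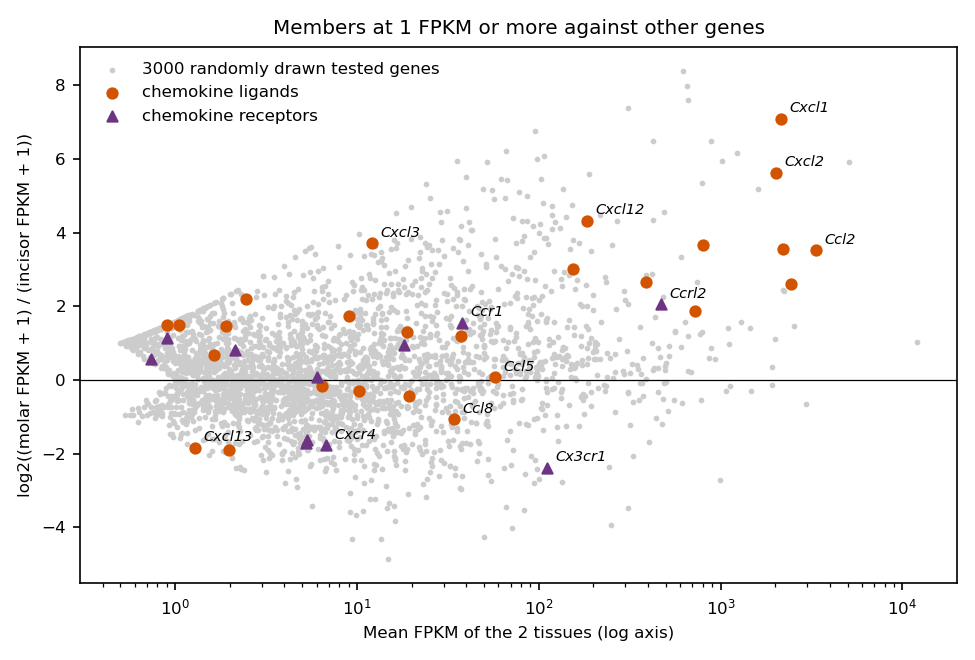
Log2 ratio of molar over incisor FPKM (pseudocount 1) against mean FPKM of both tissues on a log axis, for ligands (circles) and receptors (triangles) at 1 FPKM or more, over 3000 randomly drawn tested genes (grey). The ligands of highest level, such as Ccl2 and Cxcl1, lie well above 0, while receptors lie on both sides of it.

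Summed over the class, the ligands reached 26802 FPKM in molar and 2444 FPKM in incisor, an 11.0-fold difference, which makes 3.29% of all FPKM in molar and 0.453% in incisor. The sum rests on few genes: the 7 highest molar ligands held 94.2% of it in molar and 85.9% in incisor. Without Ccl2, the most abundant ligand by mean FPKM, the sums were 20666 in molar and 1911 in incisor. The make-up of the sum differed too. CXC ligands held 34.9% of the ligand FPKM in molar against 10.8% in incisor, and the ELR ligands alone held 30.8% in molar against 4.50% in incisor. The CC ligands Ccl2, Ccl7, Ccl12 and Ccl8 together held 42.5% in molar and 50.4% in incisor. The MIP-1 ligands with their relatives Ccl5, Ccl6 and Ccl9 held 21.5% in molar and 35.8% in incisor.

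**Figure D2:**
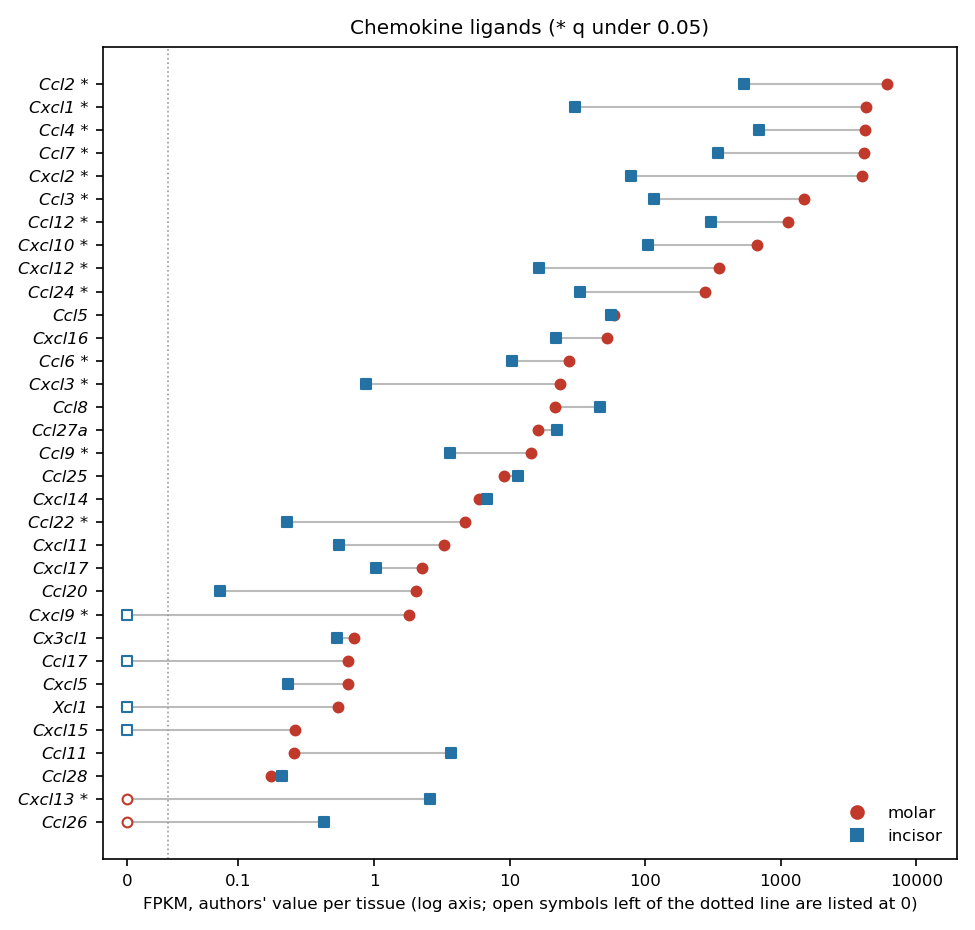
Authors' FPKM of each ligand that reached 0.1 FPKM in either tissue, in molar (circles) and incisor (squares) on a log axis, ordered by the molar value; open symbols are listed at 0 and asterisks mark q under 0.05. Molar symbols lie to the right of incisor symbols for every ligand above 100 FPKM in molar, and Ccl5, Cxcl14, Ccl25 and Ccl27a show little separation.

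The ELR ligands of neutrophils differed most. Cxcl1 (KC, chromosome 5, 90891245-90893115) stood at 4283 FPKM in molar and 30.4 FPKM in incisor, a 141-fold difference in the authors' deposited table (q = 0.000664). That made it the 17th most abundant of all rows in molar and number 2145 in incisor, and the ligand ranked 2 in molar and 11 in incisor. Cxcl2 (MIP-2, chromosome 5, 90903899-90905938) stood at 3949 FPKM in molar and 78.6 FPKM in incisor, a 50.2-fold difference with the same q. The third close relative, Cxcl3 (chromosome 5, 90786101-90788093), had 23.4 FPKM in molar and 0.867 FPKM in incisor, 27.0-fold higher in molar. These q values equal the smallest in the table, which 1414 tested genes share, so q does not rank the genes further. Cxcl3 shares 8.02% of its 32-base words with other transcripts, mostly of Cxcl2, and Cxcl1 shares none. The other ELR ligands were low and not called: Cxcl5 had 0.640 FPKM in molar and 0.231 FPKM in incisor, and Cxcl15, a lung chemokine, had 0.260 FPKM in molar against a listed 0 in incisor. A value listed at 0 may stand for a level too low for these libraries.

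Upstream sequences are given here because Cxcl1, Cxcl2 and Cxcl3 moved together and are known targets of NF-kappaB, the transcription factor released by inflammatory signals. RefSeq windows on GRCm38.p6, the build that mm10 names, were found for 41 of the 56 symbols; of the ligands called higher in molar, Ccl2, Ccl7, Ccl4 and Ccl24 were not matched. The 250 bases before the start were searched on both strands for GGNNNTTCC, a loose spelling of the kappaB site. It was present in 7 of 11 ligands called higher in molar (Cxcl1, Cxcl2, Cxcl3, Cxcl9, Cxcl10, Ccl9 and Ccl12), in 4 of 13 other ligands, in 3 of 17 receptors and in 15.7% of all 32851 windows. The narrower GGNNTTTCC, whose matches are all matches of the loose pattern too, was present in 6 of these 11, in 1 of 13 (Ccl20), in 2 of 17 (Ccr3 and Ccrl2) and in 4.93% of all windows. Both patterns had been counted first with a further G at the 5′ end, and the shorter forms were taken up only after those counts were seen. With that G, the loose pattern was present in 5 of 11 (Cxcl1, Cxcl2, Cxcl3, Cxcl10 and Ccl9), 2 of 13, 1 of 17 and 4.65% of windows, and the narrow one in 4 of 11, 1 of 13, 1 of 17 and 1.41%. The shorter forms match more members and more of all windows alike, and nothing is read from the difference. The last 180 bases before the start are printed for the 5 ligands called higher that held the loose pattern with the further G, a choice made with the matches known, and for Cxcl12, also called higher, which held neither pattern in its 250 bases. Capitals mark the loose kappaB pattern on either strand. The stretches lie at chr5:90891065-90891244 (plus strand) for Cxcl1, chr5:90903719-90903898 (plus) for Cxcl2, chr5:90785921-90786100 (plus) for Cxcl3, chr5:92348890-92349069 (minus) for Cxcl10, chr11:83578637-83578816 (minus) for Ccl9 and chr6:117168355-117168534 (plus) for Cxcl12.
Cxcl1: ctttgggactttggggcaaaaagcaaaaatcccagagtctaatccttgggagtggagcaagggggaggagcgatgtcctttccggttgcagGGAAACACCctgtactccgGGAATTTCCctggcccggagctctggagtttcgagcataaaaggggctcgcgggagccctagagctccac
Cxcl2: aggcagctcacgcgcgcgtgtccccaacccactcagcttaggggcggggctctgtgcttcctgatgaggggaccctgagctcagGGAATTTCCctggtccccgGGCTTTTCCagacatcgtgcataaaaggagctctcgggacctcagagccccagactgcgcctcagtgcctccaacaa
Cxcl3: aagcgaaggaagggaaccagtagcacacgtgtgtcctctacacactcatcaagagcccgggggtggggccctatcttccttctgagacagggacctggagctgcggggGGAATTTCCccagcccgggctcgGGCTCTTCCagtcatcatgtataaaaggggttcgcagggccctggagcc
Cxcl10: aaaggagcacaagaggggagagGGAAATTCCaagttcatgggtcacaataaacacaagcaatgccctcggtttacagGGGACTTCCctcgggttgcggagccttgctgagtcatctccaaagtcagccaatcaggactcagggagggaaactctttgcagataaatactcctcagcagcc
Ccl9: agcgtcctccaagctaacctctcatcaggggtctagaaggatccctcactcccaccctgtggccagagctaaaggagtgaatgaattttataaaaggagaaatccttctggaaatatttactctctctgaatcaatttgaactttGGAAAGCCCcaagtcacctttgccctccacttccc
Cxcl12: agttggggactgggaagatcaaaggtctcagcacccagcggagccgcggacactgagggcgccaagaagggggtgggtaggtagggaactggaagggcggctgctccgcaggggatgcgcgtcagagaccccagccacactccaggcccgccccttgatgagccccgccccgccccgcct

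Cxcl1, Cxcl2 and Cxcl3 each held 2 matches in the printed stretch, the nearer one ending 62, 69 and 41 bases before the start. The 9 bases GGAATTTCC were present on 1 strand or the other in all 3 of them, in Cxcl10 and in Ccr3, and in 94 of the 32851 windows (0.286%). These 3 genes are neighbours with similar sequence, so their matches are not separate observations. Cxcl10 also held 2 matches, ending 150 and 95 bases before its start, and Ccl9 held 1, ending 27 bases before its start. Other patterns were searched in the same way. TGANTCA, a spelling of the AP-1 site, was present in 2 of 11 ligands called higher (Ccl9 and Cxcl10), in none of 13 other ligands, in 2 of 17 receptors and in 6.75% of all windows. GAAANNGAA, a spelling of the interferon response element, was present in 3 of 11 (Ccl3, Cxcl9 and Cxcl10), 3 of 13, 2 of 17 and 7.13% of windows; it too was first counted a base longer, with a further A at the 3′ end, which gave 1 of 11, 2 of 13, 0 of 17 and 2.98%. The C/EBP spelling TTGCNNAA was present in 0 of 11, 2 of 13, 1 of 17 and 9.56%, and TATAAA in 4 of 11, 4 of 13, 3 of 17 and 12.4%. A match describes letters in a window and does not show binding.

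Ligands of Ccr2, the receptor of inflammatory monocytes, were the most abundant group. Ccl2 (MCP-1, chromosome 11, 82035577-82037452) stood at 6136 FPKM in molar and 533 FPKM in incisor, which is 11.5-fold more by the authors' deposited table (q = 0.000664). Its neighbour Ccl7 (MCP-3) stood at 4090 FPKM in molar and 345 FPKM in incisor, 11.9-fold higher with the same q. Ccl12 (MCP-5, a mouse gene) had 1131 FPKM in molar and 307 FPKM in incisor, a 3.68-fold difference with q = 0.00278. Ccl8, in mouse a ligand of Ccr8, had 21.7 FPKM in molar and 46.6 FPKM in incisor and was not called (q = 0.267). Ccl2 and Ccl7 thus showed almost the same ratio, and all 3 called members of this group had at least 307 FPKM in incisor.

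The MIP-1 ligands and their relatives, made chiefly by myeloid cells, were called higher in 4 of 5 cases. Ccl3 (MIP-1 alpha) had 1493 FPKM in molar and 116 FPKM in incisor, 12.9-fold higher in the authors' deposited table (q = 0.000664). Ccl4 (MIP-1 beta) had 4177 FPKM in molar and 690 FPKM in incisor, 6.05-fold higher, and was the most abundant ligand of the incisor cells. Ccl9 had 14.5 FPKM in molar and 3.65 FPKM in incisor (3.96-fold, q = 0.00176), and Ccl6 had 27.3 FPKM in molar and 10.4 FPKM in incisor (2.62-fold, q = 0.0332). Ccl5 (RANTES), the ligand of this group that T cells and NK cells also make, had 59.3 FPKM in molar and 55.7 FPKM in incisor and was not called (q = 0.812). It lies beside Ccl9 on chromosome 11. Macrophages make several of these ligands. The summed FPKM of their markers was 1.57 times as high in molar as in incisor, near the 1.51 times of all rows. The part of macrophages in the ligand values was not tested.

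The interferon-induced ligands of Cxcr3 were led by Cxcl10 (IP-10, chromosome 5), at 670 FPKM in molar and 105 FPKM in incisor, 6.39-fold higher in the authors' deposited table (q = 0.000664). Cxcl9 was called higher, with 1.81 FPKM in molar against a listed 0 in incisor. Its molar value lies in the range of genes that pulp is not known to use: over the 1462 olfactory, vomeronasal and taste receptor rows, a yardstick chosen with results known, the 99th percentile was 3.72 FPKM in molar and 0.122 FPKM in incisor. Cxcl9 is therefore uncertain. Cxcl11 was not called, at 3.26 FPKM in molar and 0.548 FPKM in incisor. The rows of Cxcl10 and Cxcl11 give the same interval, which also covers Art3, and 41.7% of the exon bases of Cxcl11 overlap Gm2673 on the other strand, so its value is uncertain where strand was not used.

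Among the other CXC ligands, Cxcl12 (SDF-1, chromosome 6, 117168535-117181368), a product of stromal and perivascular cells that retains stem cells and leukocytes through Cxcr4, was higher in molar by 21.2-fold (q = 0.000664, the authors' deposited table). Its FPKM was 351 in molar and 16.6 in incisor. Cxcl16, a membrane-bound ligand of Cxcr6, had 52.4 FPKM in molar and 22.2 FPKM in incisor; its q of 0.0507 missed the threshold used here, though the authors' own mark includes it. Cxcl13, the B cell attractant, was the single ligand called lower in molar, listed at 0 in molar against 2.58 FPKM in incisor. Cxcl14, an epithelial and stromal chemokine, had 5.99 FPKM in molar and 6.81 FPKM in incisor, and Cxcl17, a mucosal chemokine, had 2.26 FPKM in molar and 1.03 FPKM in incisor. Neither was called.

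Of the eotaxins, which draw eosinophils through Ccr3, Ccl24 was called and Ccl11 was not. Ccl24 (chromosome 5, 135569937-135573043) had 275 FPKM in molar and 32.9 FPKM in incisor, 8.35-fold higher in the authors' deposited table (q = 0.000664). Ccl11 had 0.256 FPKM in molar and 3.69 FPKM in incisor (q = 0.347), and Ccl26 was listed at 0 in molar and had 0.429 FPKM in incisor. Ligands that act mainly on lymphocytes and at barriers were mostly low. Ccl22, made by dendritic cells and macrophages, was called 20.5-fold higher in molar (4.68 FPKM in molar and 0.228 FPKM in incisor). Not called were Ccl25, the thymic and gut ligand of Ccr9 (9.07 FPKM in molar and 11.5 FPKM in incisor), Ccl27a, a skin chemokine (16.2 FPKM in molar and 22.4 FPKM in incisor), and Ccl20, the ligand of Ccr6 (2.03 FPKM in molar and 0.0737 FPKM in incisor). Ccl27a shares 79.0% of its 32-base words with near copies and is uncertain. Ccl17, Ccl28, Cx3cl1 and Xcl1 stayed under 1 FPKM in both tissues, with no call. Ccl1 and both Ccl19 rows were not tested.

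The summed level of the receptors rested on few genes. Receptor FPKM summed to 903 in molar and 441 in incisor, but without Ccrl2 the sums were 138 in molar and 259 in incisor, which turns the direction. Ccrl2 and Cx3cr1 together held 88.6% of the receptor FPKM in molar and 83.4% in incisor, with Ccrl2 at 84.7% in molar and 41.2% in incisor and Cx3cr1 at 3.87% in molar and 42.3% in incisor.

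**Figure D3:**
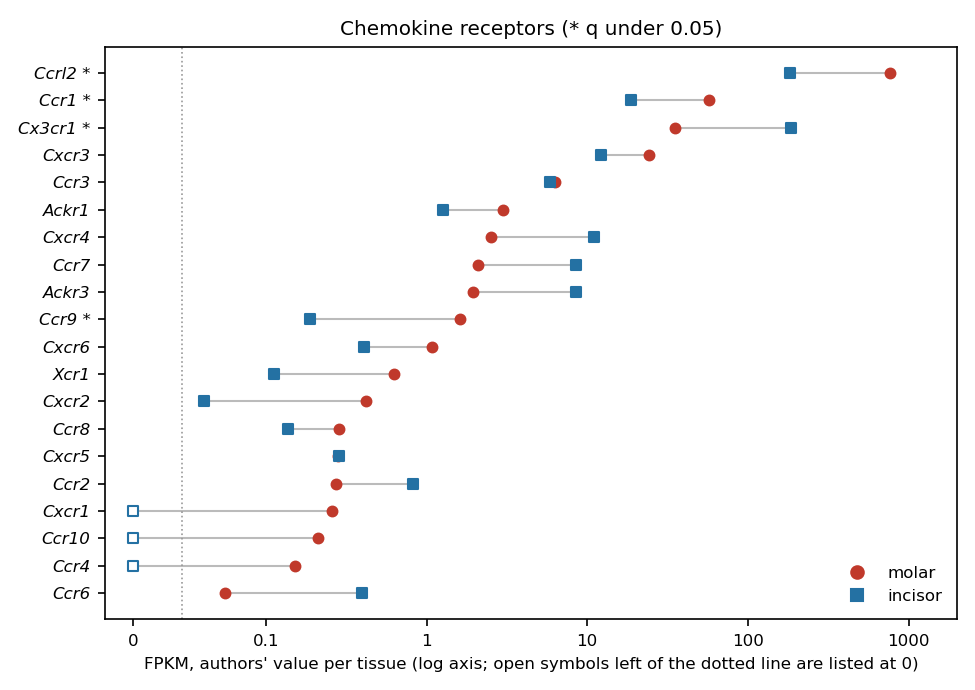
Authors' FPKM of receptors in molar (circles) and incisor (squares) on a log axis, ordered by the molar value; open symbols are listed at 0 and asterisks mark q under 0.05. Ccrl2, Ccr1 and Ccr9 have the molar symbol to the right, Cx3cr1 has it to the left, and only Ccrl2 and Cx3cr1 exceed 100 FPKM in any tissue.

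Ccrl2 (chromosome 9, 111054834-111057518), an atypical receptor that binds chemerin and is induced in activated myeloid and endothelial cells, had 765 FPKM in molar and 182 FPKM in incisor. By the authors' deposited table this is 4.21-fold more in molar, with q = 0.00124. The other atypical receptors were not called. Ackr3, a scavenger of Cxcl12, had 1.94 FPKM in molar and 8.54 FPKM in incisor (q = 0.172), and Ackr1, a venular chemokine binder, had 2.99 FPKM in molar and 1.26 FPKM in incisor (q = 0.304). Of the exon bases of Ackr1, 25.7% overlap Cadm3 on the same strand, so its value is uncertain. Endothelial markers, which were higher in molar in 9 of 10 cases, include cells known to carry Ccrl2 and Ackr1, and their part was not tested.

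Receptors of monocytes and macrophages were called in opposite directions. Cx3cr1 (chromosome 9, 120048683-120068296), the fractalkine receptor of resident macrophages, was 5.34-fold lower in molar, at 34.9 FPKM in molar and 186 FPKM in incisor (q = 0.000664, the authors' deposited table). Ccr1, which reads Ccl3, Ccl6 and Ccl9, was 3.05-fold higher in molar, at 57.3 FPKM in molar and 18.8 FPKM in incisor, with q = 0.0232. Ccr2 had 0.273 FPKM in molar and 0.820 FPKM in incisor and was not called (q = 0.252), a level far below that of its ligands. Beside these, 3 of the 12 macrophage markers were called higher in molar, C1qa (757 FPKM in molar and 255 FPKM in incisor), C1qc (528 FPKM in molar and 195 FPKM in incisor) and Aif1 (479 FPKM in molar and 169 FPKM in incisor), and 1 lower, Mpeg1 (4.67 FPKM in molar and 49.0 FPKM in incisor). Their part in the receptor values was not tested.

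Cxcr4, the receptor of Cxcl12, had 2.53 FPKM in molar and 10.9 FPKM in incisor (q = 0.252), with no call. The neutrophil receptors were near the floor of the table. Cxcr2 had 0.421 FPKM in molar and 0.0412 FPKM in incisor, and Cxcr1 had 0.257 FPKM in molar against a listed 0 in incisor; neither was called. The neutrophil markers S100a8 and S100a9 were low as well, at 4.50 and 5.71 FPKM in molar and 6.33 and 6.80 FPKM in incisor.

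Receptors of lymphocytes, eosinophils and dendritic cells gave 1 call in 11, higher in molar (9.09%, near the 11.9% of all tested genes). Ccr9, the receptor of gut-homing lymphocytes, was called higher in molar, at 1.62 FPKM in molar and 0.187 FPKM in incisor (q = 0.00916), a molar value within the range of the olfactory, vomeronasal and taste receptors and so uncertain. Cxcr3 had 24.2 FPKM in molar and 12.2 FPKM in incisor (q = 0.155). Ccr3 had 6.27 FPKM in molar and 5.83 FPKM in incisor, Ccr7 of lymph-node homing had 2.08 FPKM in molar and 8.57 FPKM in incisor, and Cxcr6 had 1.07 FPKM in molar and 0.408 FPKM in incisor; none was called. Ccr4, Ccr6, Ccr8, Ccr10, Cxcr5 and Xcr1 stayed under 1 FPKM in both tissues with no call.

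Ligands and receptors were set side by side for 33 textbook pairs. The receptor row that is not reported by itself is left out, so the counts cover only the listed pairs. Of the 15 pairs whose ligand was called higher in molar, the receptor was called higher in 3 and not called in 12. The 3 pairs with both called higher were Ccl3, Ccl6 and Ccl9 with Ccr1. For 7 of the 14 ligands called higher in these pairs, every receptor listed here was under 1 FPKM in both tissues: Cxcl1, Cxcl2 and Cxcl3 with Cxcr2, Ccl2, Ccl7 and Ccl12 with Ccr2, and Ccl22 with Ccr4. Cx3cr1 showed the reverse case, since its ligand Cx3cl1 had 0.707 FPKM in molar and 0.530 FPKM in incisor. The pairs are not a full list of what each ligand binds, so the 7 ligands may have other receptors among the members. Ccl7 is paired with Ccr2 alone, and Ackr1, a chemokine binder at 2.99 FPKM in molar and 1.26 FPKM in incisor, is in no pair.

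**Figure D4:**
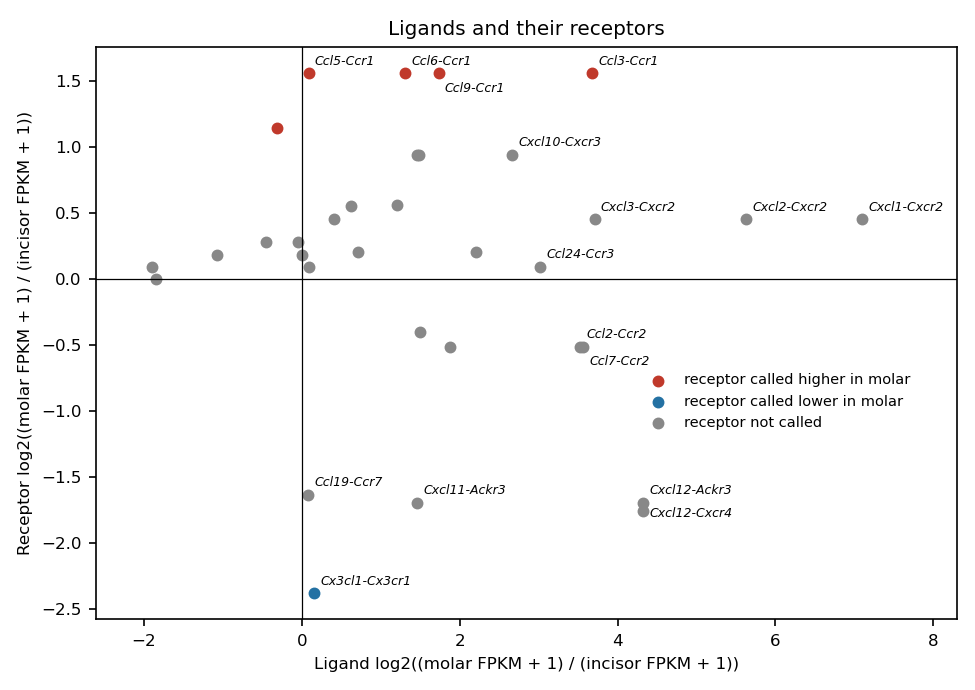
Log2 ratio of molar over incisor FPKM (pseudocount 1) of the receptor against that of its ligand for 33 pairs; colour gives the call of the receptor. Pairs with the ligand far to the right, such as Cxcl1 and Cxcl2 with Cxcr2 and Cxcl12 with Cxcr4, have receptors that were not called.

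Chemokine genes lie in clusters, and members of a cluster were not all called. Taking members less than 1000000 bases apart as a cluster, 6 clusters held at least 3 members. Their counts are to be read beside the 11.9% called higher and 4.28% called lower over all tested genes. They cover all members of a cluster, including Ccl1 on chromosome 11, which was not tested. On chromosome 11, 3 of 6 members were called higher in the stretch 82035577-82179812, where Ccl11, between Ccl7 and Ccl12, was not called, and 4 of 5 in the stretch 83525779-83664683, where Ccl5 was not. On chromosome 5, 3 of 5 were called higher at 90759298-90905938 and 2 of 3 at 92321331-92414627. Pf4, a platelet and macrophage CXC chemokine without the Cxcl name, lies in the stretch of Cxcl1, between Cxcl5 and Cxcl3 and had 4257 FPKM in molar and 692 FPKM in incisor, 6.15-fold higher. On chromosome 8, Ccl22 was called and its neighbours Cx3cl1 and Ccl17 were not. The receptor cluster of chromosome 9 (123767211-124109140) is given by 6 members, with Ccr9 and Ccr1 called higher and Cxcr6, Xcr1, Ccr3 and Ccr2 not called.

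**Figure D5:**
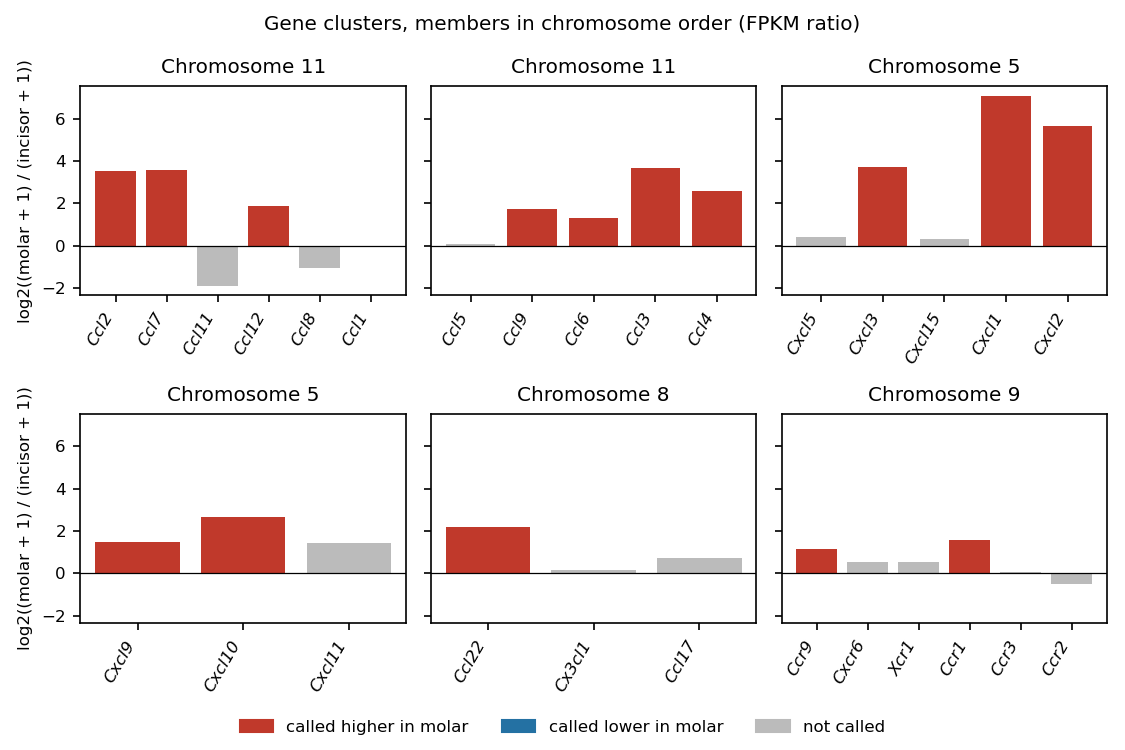
Log2 ratio of molar over incisor FPKM (pseudocount 1) of the members of 6 clusters, in chromosome order; red bars were called higher in molar, blue lower, grey not called. Uncalled genes stand between called ones, as Ccl11 does between Ccl7 and Ccl12 and Cxcl15 between Cxcl3 and Cxcl1, and 2 of the 6 chromosome 9 receptors drawn were called.

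Other genes of chemokine biology were counted from lists, to be read beside the 11.9% called higher and 4.28% called lower over all tested genes. A list for the induction of chemokines held cytokines and cytokine receptors, and also Il1rn, Tlr2, Tlr4, Cd14 and Myd88. Of its 26 tested genes, the authors' deposited table has 11 called higher in molar and none lower, with a median log2 ratio of 1.30. Among them were Tnfrsf1a, the main TNF receptor (81.3 FPKM in molar and 3.87 FPKM in incisor), Il6 (23.7 FPKM in molar and 1.196 FPKM in incisor), Csf3 (25.8 FPKM in molar and 1.68 FPKM in incisor) and Tnf (229 FPKM in molar and 22.6 FPKM in incisor). Of 14 related chemoattractants and receptors outside the name pattern, 4 were called higher and none lower, with a median of 0.94. These were Pf4, the formyl peptide receptors Fpr1 (65.7 FPKM in molar and 4.14 FPKM in incisor) and Fpr2 (14.6 FPKM in molar and 0.424 FPKM in incisor), and the complement receptor C3ar1 (142 FPKM in molar and 53.6 FPKM in incisor). Of 34 genes of receptor signalling, 5 were called higher and 1 lower, shares near those of all genes, with a median of 0.07, close to the 0.14 of all genes. The G protein subunit Gng5 (676 FPKM in molar and 70.1 FPKM in incisor), the arrestin Arrb2 (56.0 FPKM in molar and 11.4 FPKM in incisor), the receptor kinase Adrbk1 (14.4 FPKM in molar and 2.72 FPKM in incisor) and Gng12 (33.6 FPKM in molar and 9.99 FPKM in incisor) were higher in molar, and the subunit Gnb1 (29.8 FPKM in molar and 114 FPKM in incisor) was lower. Of 20 tested proteases and surface glycan carriers that trim or hold chemokines, none was called higher and 5 lower, with a median of -0.62. They included the collagenase Mmp13 (4.37 FPKM in molar and 375 FPKM in incisor), the proteoglycans Gpc1 (3.61 FPKM in molar and 21.2 FPKM in incisor), Sdc2 (21.3 FPKM in molar and 72.5 FPKM in incisor) and Sdc4 (159 FPKM in molar and 458 FPKM in incisor).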

How the data were processed

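RNA was measured in 4 libraries of sorted pulp cells. Tools in the submitters' processing notes are HISAT2, Trim Galore and edgeR, on mm10, with no role or order; the strand setting is not given in the sources used here, nor is library scaling. The authors' deposited table, laid out as Cuffdiff writes it, has FPKM per tissue, a log2 fold change, a test statistic (score), a p-value and a q-value, per the file headers. The log2 fold equals log2 of molar over incisor FPKM within 3.96e-05 for tested genes, and the q-values equal Benjamini-Hochberg adjusted p-values over the 18770 tested rows. Libraries of a tissue were already combined, so no test was fitted here and no interval is given. Members were found by gene name. Every member at 1 FPKM or more in either tissue, or called, is named; of other lists, the called genes with the 4 largest differences in each direction. Among members, 1 receptor row enters the class counts, sums and medians but is not reported here by itself and is left out of pairs, clusters and figures. Members and lists were chosen with earlier results of these data known. Medians use a pseudocount of 1 and a minimum of 1 FPKM, which understates the difference of low genes. Starts were moved to 1-based positions. Shared 32-base words and exon overlaps come from GENCODE M21, and upstream windows from RefSeq. In these windows 6 patterns were searched, 3 of them in 2 lengths; the shorter length was added after the counts of the longer were seen. Counting and medians were tested on simulated data. Analyses used Python 3.11.15, numpy 2.4.6 and pandas 2.3.3. Alternatives covered the q threshold, the minimum level, the pseudocount and the scaling.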

Additional observations from a re-analysis of the deposited data

How the results depend on the processing

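No paired analysis was possible because the table holds 1 combined value per tissue, and for the same reason no library could be left out. The counts of ligands and of receptors called higher in molar moved by no more than 1.5 times under any alternative run, at 13 to 16 ligands and 2 or 3 receptors. The single ligand called lower became 0 with a minimum of 5 FPKM. It also became 0 with a limit chosen after seeing the data. That limit was the molar 99th percentile of olfactory, vomeronasal and taste receptors, 3.72 FPKM, applied to both tissues. The ligand, Cxcl13, had 2.58 FPKM in incisor, which is above the incisor percentile of 0.122 FPKM. The 2 receptors called lower became 1 at q under 0.01 and 1 with a minimum of 5 FPKM, where fewer members enter. The ligand median log2 ratio of 1.62 was 2.49 with a pseudocount of 0.1, 1.07 with 5, 1.26 with no minimum, 2.60 with a minimum of 5 FPKM, 1.47 centred on all genes and 1.16 with equal FPKM totals. The receptor median of 0.32 was 0.55, 0.11, 0.20 and 0.18 under the first 3 and the centred setting, and reversed to -0.77 with a minimum of 5 FPKM and to -0.063 with equal totals, a shift of 0.60. The log2 ratio of summed FPKM was 3.45 for ligands, 2.86 with equal totals and 3.43 without Ccl2. For receptors it was 1.03, 0.44 with equal totals and -0.91 without Ccrl2. Of 21 called members, 3 had q from 0.01 to 0.05, and none reversed among the pseudocounts and scalings run. Depth is unknown, so values under about 1 FPKM cannot be weighed. Molar values under 3.72 FPKM lie in the range of the olfactory, vomeronasal and taste receptors and are uncertain too. Among them are the molar values of Ccl20, Cxcl11, Cxcl17, Ackr1, Ackr3, Cxcr4 and Ccr7.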
